A study of Mus musculus with 7 samples.

Results

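The cells described here are CD8 T cells found among sorted neutrophils of the healthy mouse spleen. They were picked out of 1 single-cell RNA library, the spleen library of run 2, by the unique molecular identifiers (UMIs, each standing for 1 captured mRNA molecule) of 11 genes. A member had at least 3 UMIs summed over Cd3d, Cd3e, Cd3g, Lck and Thy1, at least 1 UMI of Cd8a or Cd8b1, no Cd4 UMI and fewer than 2 UMIs summed over the B cell genes Cd79a, Cd79b and Ms4a1. The rule found 255 of the 4353 cells of that library, 5.86% (95% exact Clopper-Pearson interval 5.18 to 6.60), out of 21763 cells in the 7 libraries of the series. The members were thus selected on measured UMIs of those 11 genes, whose levels are given as a description.

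The study profiled neutrophils from male C57BL/6J mice on a droplet platform that reads the 3' ends of transcripts. Healthy, untreated blood, bone marrow and spleen gave 1 library each in each of 2 runs, each library pooling 3 mice, 6 weeks old in run 1 and 8 weeks old in run 2, with the tissues taken from the same mice. The 7th library held hashtagged neutrophils of the same strain from healthy blood, from blood and joints after arthritogenic K/BxN serum, and from lung and peritoneum after IL-1β. In all of them live cells positive for CD11b and Ly6G were sorted, a gate that marks neutrophils, so the share of T cells in a library is set by what passed the sort and is no measure of T cells in the organ.

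CD8 T cells carry an αβ T cell receptor, whose CD3 chains signal through the kinase Lck, and the CD8 coreceptor, a dimer encoded by Cd8a and Cd8b1 that binds MHC class I. Naive cells recirculate through the spleen and lymph nodes with the help of CCR7 and are kept quiescent and alive by factors such as KLF2, TCF1, LEF1 and the IL-7 receptor. Memory cells keep chemokine mRNA and receptors such as CXCR3 and the IL-2 receptor β chain ready, and killing depends on perforin and granzymes stored in granules.

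The defining genes were present as the name of the population implies. Cd8b1 (mm10, chromosome 6, 71322788 to 71337494, plus strand), the β chain of the coreceptor, had UMIs in 246 of the 255 cells, and Cd8a (chromosome 6, 71373427 to 71379173, plus strand), the α chain, in 158. Both chains were seen in 149 cells, Cd8b1 alone in 97 and Cd8a alone in 9. Cd3d, a chain of the receptor complex, was seen in 238 cells. The summed T cell UMIs of a member ran up to 22 with a median of 8, and those of Cd8a and Cd8b1 up to 19 with a median of 4.

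Genes of the receptor that the rule did not use were found in nearly every member. The constant regions Trac, Trbc1 or Trbc2 had at least 1 UMI in 253 of 255 cells, 99.2%. Trbc1 was seen in 125 cells, Trbc2 in 228 and both in 102. A mature T cell uses 1 of these near-identical constant regions, so reads can be split between them and each single value is uncertain. Variable segments were hardly captured by the 3' tags, with 28 UMIs in all, 24 from 14 Trav segments and 4 from 4 Trbv segments. The defining genes of γδ and NKT cells were at or near 0, with 3 Trdc UMIs in the 255 cells and none of Tcrg-C4, Trdv4, Zbtb16 or Sox13.

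The thresholds cut through a continuous range. Starting from 683 cells with 3 or more T cell UMIs, 266 had a Cd8a or Cd8b1 UMI, 3 of these were left out for a Cd4 UMI and another 8 for their B cell genes. Just inside the rule stood 10 members with a T cell sum of 3, all with a receptor constant-region UMI, with Nkg7 at 643 CPM (UMIs of a gene per 1e6 UMIs of the group) and Dapl1 at 409. Just outside stood 9 cells with a T cell sum of 2, of which 8 had a constant-region UMI, with Nkg7 at 626 CPM and Dapl1 at 417. At the other threshold, 35 members had a single Cd8a or Cd8b1 UMI, and all 35 had a constant-region UMI. Nkg7 was at 585 CPM and Dapl1 at 463 CPM in them, below the 1012 and 761 CPM of members with 2 or more. A further 310 T cells of the library had neither Cd4 nor Cd8 UMIs. Of these, 304 had a constant-region UMI, and their Nkg7 level of 327 CPM lay between the 958 CPM of the CD8 T cells and the 154 CPM of the 88 CD4 T cells.

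The library held 6110253 UMIs. The members held 632 to 4771 UMIs each, with a median of 2225, and 583504 in all. The 88 CD4 T cells (the same rule with Cd4 in place of Cd8a and Cd8b1) had a median of 1855.5 UMIs and 168601 in all. The 3318 non-T cells, with no UMI of the 7 T cell and CD8 genes, had a median of 967.5 UMIs and 4090917 in all. They contained 1271 B cells (3 or more B cell UMIs, median 1425 UMIs) and 1745 neutrophils (3 or more UMIs of Csf3r, Cxcr2, Retnlg, Il1b, Mmp9 and Mmp8 with no B cell UMI, median 760). All members came from 1 library, so cells are not replicates, no test was possible, and every interval given covers counting error only.

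RNA of other cells was measurable in the members. S100a8, a calcium-binding protein of neutrophils, had UMIs in 224 of the 255 cells, and after every cell was thinned to 500 UMIs in 42.4% of them, against 44.3% of CD4 T cells, 45.7% of B cells and 99.3% of neutrophils. The 18 genes of the neutrophil list made up 0.412% of the members' UMIs and 21.8% of those of the neutrophils. The median member stood at 0.233% and the highest at 14.4%, with 13 members over 1% and 2 over 5%, and the 5 highest held 32.4% of the 2404 neutrophil-list UMIs. The gated proteins were hardly seen as mRNA, with no UMI of Ly6g and 3 of Itgam (CD11b) in all members. Igkc, an antibody light chain, had a UMI in 14.9% of thinned members, 24.0% of thinned neutrophils and 93.3% of thinned B cells. Of the 12 monocyte and macrophage genes Csf1r, Fcgr1, Adgre1, C1qa, C1qb and F13a1 were at 0, and the other 6 summed to 261 UMIs, of which 221 were from Ly6c2, a gene that CD8 T cells also express. At 0 were also 7 of 9 dendritic cell genes and all 7 platelet genes. Of the 15 NK cell genes 14 were detected, with 1371 UMIs in all, 559 of them from Nkg7 and 511 from Ccl5, which the CD8 T cell lists also hold. Klra8 was the only gene of the list at 0 and Ncr1 had 1 UMI, so the other receptor genes of the list were all detected. The NK cell list stood at 2349.6 CPM in the members and 7475 in non-T cells, with 2 of 6 tested genes at least 4-fold higher and 3 lower, beside 3.00% and 10.6% of all 4737 genes tested. No doublet caller was run, and the limit on B cell genes was the safeguard against pairs with B cells. A barcode of 7 members also occurred in another library.

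CD8 T cells stood above the non-T cells in the machinery of the T cell receptor and in genes of naive T cells, and below them in B cell and neutrophil genes. Of 4737 genes at a mean of at least 20 CPM over both groups, 142 (3.00%) were at least 4-fold higher in the CD8 T cells and 500 (10.6%) at least 4-fold lower, and the median gene differed by 0.09 on the log2 scale. Scaling to the median ratio of genes took out a log2 ratio of 0.31, which lowered the CD8 T cell side. It gave 104 genes higher and 598 lower. Since the rule asked for T cell genes in 1 group and their absence in the other, these counts describe the populations.

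The T cell identity list had 9 of 10 genes passing the level filter at least 4-fold higher than in non-T cells, beside 3.00% of all genes, with a median log2 difference of 5.70. Trbc2 reached 1587 CPM (1486 to 1693) against 18.6. Trac was at 761 CPM (692 to 835) against 9.53. Bcl11b, the zinc-finger factor that keeps cells committed to the T lineage, was at 248 CPM against 3.67. Cd28, the main costimulatory receptor, was at 179.9 CPM against 4.16, and Cd247, the ζ signalling chain, at 146 CPM against 2.69. Cd2 was the exception at 370.2 CPM, 2.58-fold above the non-T cells, with B cells at 253 CPM.

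Of 16 genes of T cell receptor signalling that passed the filter, 11 were at least 4-fold higher and none lower, beside 3.00% and 10.6% of all genes, with a median log2 difference of 3.17. Lat, the membrane scaffold phosphorylated after receptor engagement, stood at 375 CPM against 4.89 in non-T cells, 76.8-fold (48.5 to 128). The kinase Zap70 stood at 90.8 CPM against 3.42. Prkcq, the protein kinase C isoform of the T cell synapse, was at 125 CPM against 1.22, a ratio of 102 (41.9 to 325). Skap1, an adaptor that links the receptor to integrins, was at 319 CPM against 7.82. The general haematopoietic members of the list were similar on both sides, with the phosphatase Ptprc (CD45) at 539.8 CPM in CD8 T cells and 781 CPM in non-T cells.

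Outside those lists, Dapl1 (chromosome 2, 59484653 to 59505020, plus strand) was the gene of largest ratio among those at 100 CPM or more. It stood at 723 CPM (656 to 796) against 4.40 in non-T cells, 164-fold (103 to 280.1), and was seen in 130 of 255 cells. Ms4a4b, a four-span membrane protein of T cells, stood at 1719 CPM (1614 to 1829), 51.0-fold (42.6 to 61.3) above non-T cells, in 239 cells. Klk8, a serine protease gene, stood at 293 CPM (251 to 340.4) against 2.44, in 119 cells. Ccr9, the receptor for the chemokine of small intestine and thymus, was at 108 CPM in 50 cells, and the non-T cells held 3 UMIs in all, a ratio of 147 (48.1 to 733). Cxcr6, a chemokine receptor of activated and tissue T cells, was at 115 CPM in 55 cells, with 3 UMIs in the non-T cells as well, a ratio of 157 (51.3 to 778).

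**Figure D1:**
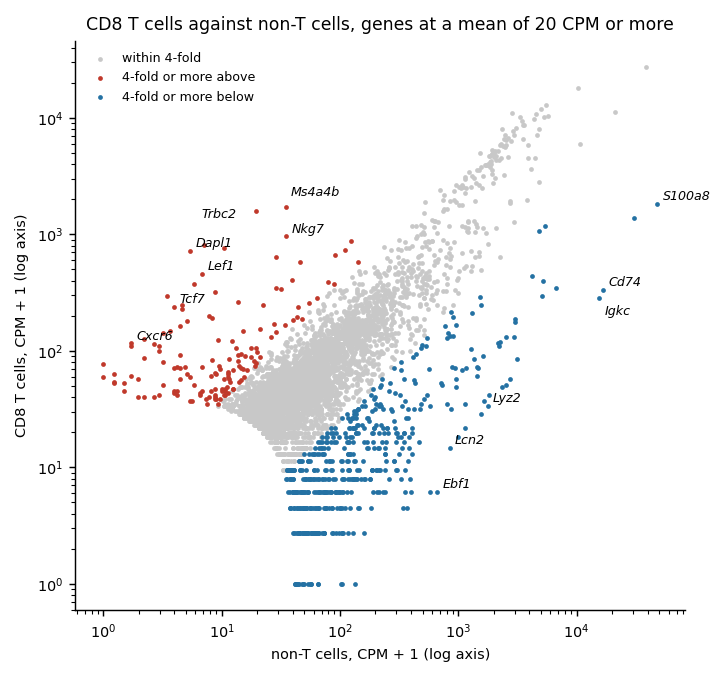
Each point is 1 of 4737 genes, with CPM + 1 in non-T cells on the horizontal log axis and in CD8 T cells on the vertical log axis, coloured where the 2 differ by 4-fold or more. The 142 genes above include T cell genes such as Trbc2, Lef1 and Tcf7, and the 500 below include B cell genes (Ebf1, Cd74, Igkc) and neutrophil or myeloid genes (S100a8, Lcn2, Lyz2).

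Genes lower in the CD8 T cells included those of B cells and neutrophils, the main cells of the non-T group. Of 16 B cell genes tested 15 were at least 4-fold lower, beside 10.6% of all genes, with a median log2 difference of -5.42, and so were 18 of 18 neutrophil genes, with a median of -4.33, and 3 of 3 plasma cell genes. Ebf1, the factor that specifies B cells, had 3 UMIs in the members, 5.14 CPM against 667. H2-DMb2, of the MHC class II loading complex, also had 3 UMIs, 5.14 CPM against 578. Lcn2, a granule protein of neutrophils, stood at 13.7 CPM against 846 and Padi4, the histone citrullinating enzyme of neutrophils, had 1 UMI against 103 CPM.

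The naive genes were broadly present, and their sum differed little between the CD8 and the CD4 T cells. All 15 were detected in the CD8 T cells, with a summed level of 4886 CPM (4708 to 5069), against 4781 (4456 to 5122) in CD4 T cells and 2546 (2497 to 2595) in non-T cells. Against non-T cells 7 of the 15 were at least 4-fold higher and none lower, beside 3.00% and 10.6% of all genes, with a median log2 difference of 1.97.

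The members of the list fell into those that mark T cells and those that other spleen cells also expressed. Lef1, a partner of β-catenin and one of the transcription factors of naive T cells, stood at 459 CPM (406 to 518) in 154 cells against 5.87 CPM in non-T cells. Tcf7, which encodes TCF1, was at 238 CPM (200.3 to 281) in 104 cells against 2.93. Il7r, the survival receptor, was at 228 CPM in 86 cells against 3.67. Igfbp4, a secreted binding protein seen in naive T cells, was at 109.7 CPM against 1.96, and Txk, a Tec-family kinase, at 192 CPM against 7.33. Satb1, a chromatin organiser, was higher by 3.93-fold (3.26 to 4.72), just under the limit, at 312 CPM.

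Klf2 and Ccr7 carried less information on cell type. Klf2, which controls exit from tissues, was at 1217 CPM (1129 to 1309.7) in 226 of the CD8 T cells and at 1412 CPM in non-T cells. Ccr7, the lymph node homing receptor, was at 272 CPM (232 to 318) in 121 CD8 T cells, 229 CPM in B cells and 5.75 CPM in neutrophils. Each of these values is a level over all cells of a type, and fewer expressing cells and fewer molecules per cell cannot be told apart in it.

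**Figure D2:**
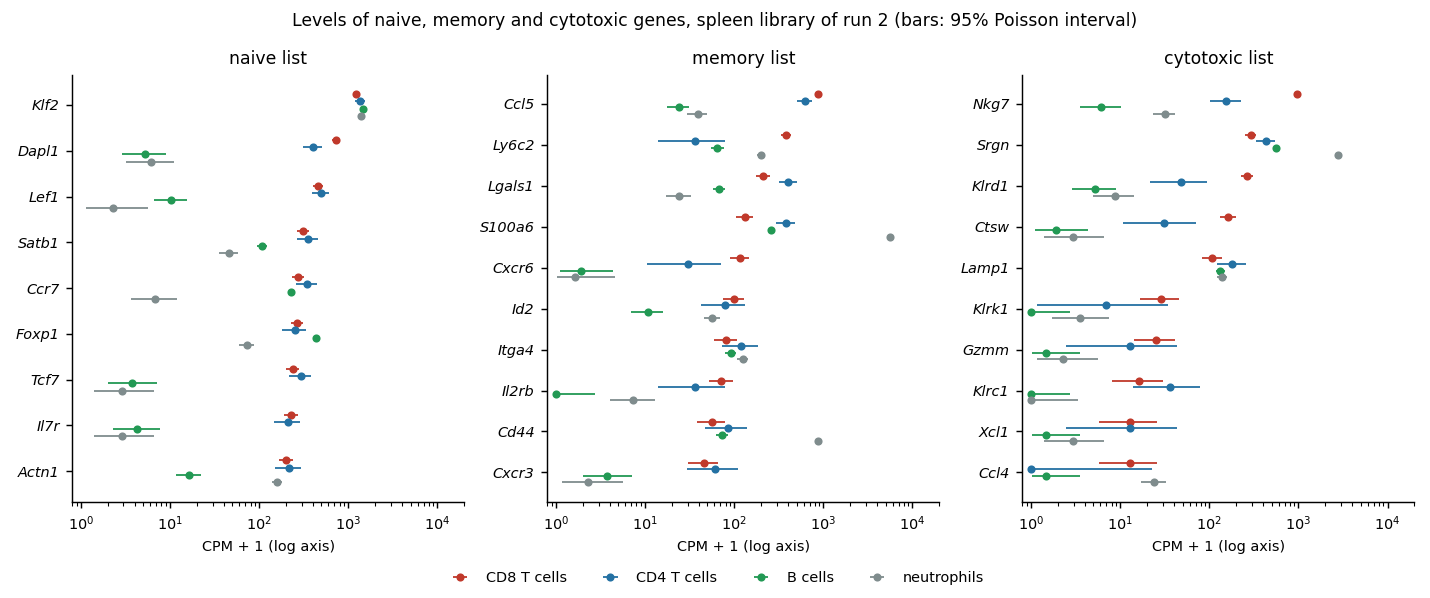
Levels of up to 10 of the highest genes of the naive, memory and cytotoxic lists as CPM + 1 on log axes in CD8 T cells, CD4 T cells, B cells and neutrophils of the spleen library of run 2, with bars for the 95% Poisson interval of the counts. Naive genes such as Lef1 and Tcf7 are close in both T cell groups and near 0 elsewhere, and Nkg7, Klrd1 and Ctsw are higher in the CD8 than in the CD4 T cells.

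Perforin and granzymes were rare or not seen, and Nkg7 gave 559 of the 1109 UMIs of the cytotoxic list. The 21 genes summed to 1901 CPM (1790.4 to 2016) in CD8 T cells, 955 (813 to 1114) in CD4 T cells and 1821 (1779.8 to 1863) in non-T cells, where Srgn, a granule proteoglycan shared with neutrophils, was at 1520.0 CPM. Of 7 genes tested against non-T cells 3 were at least 4-fold higher and 2 lower, beside 3.00% and 10.6% of all genes, with a median log2 difference of 1.05.

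Nkg7 (chromosome 7, 43437073 to 43438249, plus strand), a granule membrane protein of cytotoxic lymphocytes, was at 958 CPM (880.2 to 1041). It was seen in 199 of 255 cells, 78.0% (72.5 to 83.0), with at most 10 UMIs in a cell and 4.47% of its UMIs in the 3 highest cells. After thinning to 500 UMIs it was seen in 38.0% of CD8 T cells, 4.55% of CD4 T cells, 0.236% of B cells and 0.516% of neutrophils. Nkg7 was thus spread over most of the population and far above its share in the cells that should lack it.

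Klrd1 (CD94) and Ctsw (cathepsin W), both known from NK cells and CD8 T cells, were also higher in CD8 T cells than in CD4 and non-T cells, but were seen in fewer cells than Nkg7. Klrd1 stood at 264 CPM (224 to 309) in 103 cells, against 47.4 in CD4 T cells and 12.7 in non-T cells. Ctsw stood at 163 CPM (132 to 199) in 67 cells, against 29.7 and 3.42.

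The killing molecules themselves were rare or not seen. Perforin (Prf1) had 3 UMIs in 3 cells, granzyme B (Gzmb) 1 UMI, granzyme A (Gzma) 1 UMI and Gzmm 14 UMIs in 11 cells. Gzmk, Gzmc, Klrg1 and Ccl3 had none, which allows a level of up to 5.14 CPM. Interferon γ (Ifng) had 2 UMIs in 2 cells. Gzma was at 59.4 CPM in the non-T cells, so its transcripts were captured in this library.

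Ccl5, the gene with the most UMIs of the memory list, came from a small group of cells. The 20 genes of the list summed to 2187 CPM (2068 to 2310) in CD8 T cells, 1975 (1769 to 2199) in CD4 T cells and 3579 in non-T cells, where S100a6, abundant in neutrophils, was at 2528 CPM alone. Of 13 genes tested against non-T cells 4 were at least 4-fold higher (Ccl5, Cxcr6, Il2rb, Cxcr3) and 3 lower (S100a6, Cd44, Zeb2), beside 3.00% and 10.6% of all genes, with a median log2 difference of 1.14. Ccl5 gave 511 of the 1276 UMIs of the list in the CD8 T cells, 40.0%. Without Ccl5, an alternative chosen after the values had been seen, the list stood at 1311 CPM (1219.8 to 1407) in CD8 T cells, 1358 (1188 to 1546) in CD4 T cells and 3456 in non-T cells.

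Ccl5 (chromosome 11, 83525778 to 83530518, minus strand), the chemokine RANTES that memory CD8 T cells hold ready as mRNA, stood at 876 CPM (801 to 955). All 511 UMIs came from 38 cells, 14.9% (10.8 to 19.9), with a median of 9.5 UMIs in a positive cell and up to 59. Of these cells 7 had 1 or 2 UMIs, 12 had 3 to 9 and 19 had 10 or more, and the 3 highest held 29.7% of the total. After thinning, Ccl5 was seen in 12.5% of CD8 T cells, 5.68% of CD4 T cells, 0.865% of B cells and 1.15% of neutrophils. The CD4 T cells held Ccl5 at 617 CPM (504 to 747), in 6 of 88 cells with up to 36 UMIs, and the CD8 T cells were 1.42-fold (1.15 to 1.77) above them.

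Ly6c2 (chromosome 15, 75108158 to 75111970, minus strand), a surface protein of antigen-experienced and cytokine-exposed CD8 T cells, stood at 379 CPM (330.5 to 432) in 84 cells. It was also present in neutrophils at 199 CPM, and its sequence is close to that of Ly6c1, so the assignment between these 2 genes is uncertain. Il2rb, the IL-2 and IL-15 receptor β chain, was seen in 34 cells and Cxcr3, a receptor for interferon-induced chemokines, in 22. The T-box factors Eomes and Tbx21 had 16 UMIs in 14 cells and 6 UMIs in 4 cells. Cd44, which rises on activated T cells as a protein, stood at 54.8 CPM in 26 cells against 878 CPM in neutrophils.

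**Figure D3:**
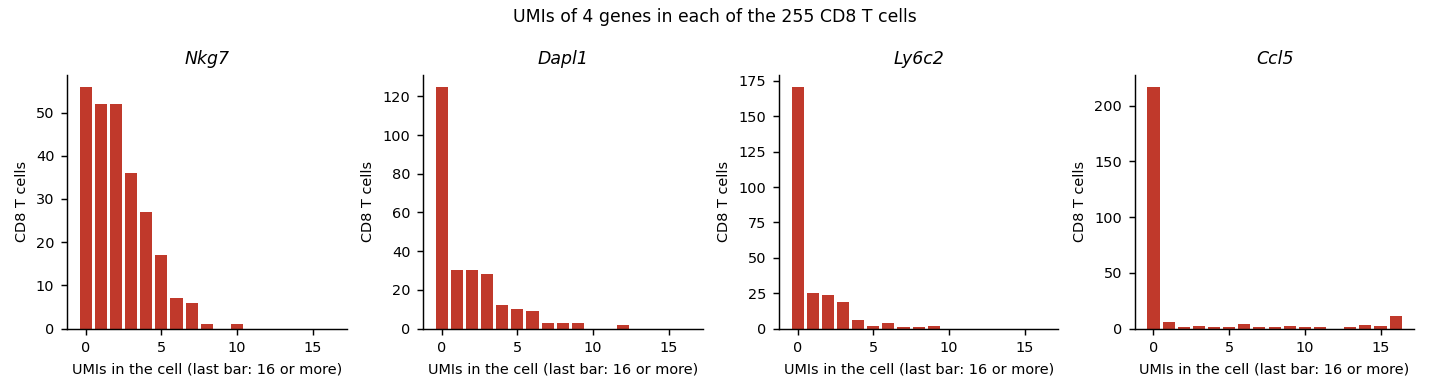
Number of the 255 CD8 T cells (vertical axis) at each number of UMIs per cell (horizontal axis, the last bar holding 16 or more) for Nkg7, Dapl1, Ly6c2 and Ccl5. Nkg7 is spread over 199 cells with at most 10 UMIs, whereas Ccl5 is at 0 in 217 cells and reaches 59.

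The CD8 T cells that carried Ccl5 differed from the rest of the population in some genes of the memory and cytotoxic lists. This split into 38 cells with and 217 without a Ccl5 UMI was chosen after the values had been seen, and it is described without a test. The 38 cells held 104317 UMIs with a median of 2718.5, the others 479187 with a median of 2176, and the neutrophil list made up 0.231% and 0.451% of them. Ccl5 is itself a gene of the memory list, so the sum of that list in the 2 sets is partly fixed by the split. Without Ccl5 the list stood at 2703 CPM (2397 to 3038) in the 38 cells, from 282 UMIs, and at 1008 CPM (920.1 to 1102) in the 217, from 483 UMIs. The cytotoxic list was at 2895 and 1684 CPM and the naive list at 3988 and 5082.

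Among genes at 20 CPM or more over all members, 8 of 12 memory genes other than Ccl5 were at least 2-fold higher in the cells with Ccl5 and none lower, beside 6.57% higher and 11.9% lower of 4521 genes. The 4 within 2-fold were Cd44, Cxcr6, Itga4 and S100a6. Cxcr6, which had more UMIs than Cxcr3, stood at 86.3 CPM (39.5 to 164) in the cells with Ccl5 and 121 (91.9 to 156) in the others, a ratio of 0.713 (0.310 to 1.45), and was seen in 8 of 38 and 47 of 217 cells. Of 7 cytotoxic genes 2 were higher, Klrk1 and Gzmm, and none lower. The level of 20 CPM was 11.7 UMIs over all members, of whose 583504 UMIs the 38 cells held 104317. Genes near that level could thus have few UMIs in the 38 cells, and the shares of all genes carry this uncertainty.

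Cxcr3 was at 173 CPM (102 to 273) in the cells with Ccl5, seen in 14 of 38, and at 16.7 CPM (7.21 to 32.9) in the others, seen in 8 of 217, a ratio of 10.3 (4.28 to 27.5). Il2rb was seen in 17 of 38 and 17 of 217 cells, at 201 and 41.7 CPM. Ly6c2 was seen in 28 of 38 and 56 of 217, at 997 and 244 CPM, a ratio of 4.08 (3.10 to 5.36). After thinning to 500 UMIs the shares were 42.1% and 9.68% for Ly6c2 and 7.89% and 0.922% for Cxcr3. Ly6c2 was thus also present in cells without Ccl5.

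Further genes were higher in the cells with Ccl5. Ctla2a, a cathepsin inhibitor of activated T cells, was at 259 against 29.2 CPM, and Klrk1 (NKG2D) had 12 UMIs in the 38 cells and 4 in the 217. Gzmm had 11 and 3 UMIs, and the chemokine Xcl1 had 7 and none, which is at least 10.7-fold higher. Bcl2, the survival factor, was at 546 (414 to 708) against 236 CPM (194 to 284). Nkg7 differed much less, at 1332 against 876 CPM, and was seen in 35 of 38 and in 164 of 217 cells. Klrd1 differed by 1.78-fold (1.22 to 2.55).

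Part of the naive list went the other way, with 4 of 15 genes at least 2-fold lower in the cells with Ccl5 and none higher, beside the 11.9% and 6.57% of all genes. The 4 were Ccr9, Igfbp4, Ccr7 and Actn1. Igfbp4 and Ccr9 had 1 UMI each in the 38 cells and 63 and 62 UMIs in the 217. Ccr7 was at 134 CPM (73.4 to 225) in the cells with Ccl5 and 303 (255 to 356) in those without, and Actn1, an actin crosslinker, at 86.3 and 223 CPM. Lef1 and Dapl1 stayed within 2-fold, Lef1 at 268 CPM (178 to 388) and 501 (439 to 568), and Dapl1 at 422 (306 to 566) and 789 (711 to 873). Rgcc, a regulator of the cell cycle that is not on the list, had 1 against 75 UMIs.

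For Il7r, Klf2 and Tcf7 of the naive list the interval of the ratio included 1, which does not show equal levels. The interval of Tcf7 reached past 2-fold lower. Il7r was at 288 and 215 CPM, a ratio of 1.34 (0.860 to 2.03). For Klf2 the ratio was 1.18 (0.975 to 1.42) and for Tcf7 0.683 (0.392 to 1.13). Cd44, of the memory list, had a ratio of 1.06 (0.357 to 2.63), which at this depth leaves a wide range. Globin genes were also higher in the cells with Ccl5, but 1 cell held most of them, with up to 38 Hbb-bs UMIs of the 43 found.

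**Figure D4:**
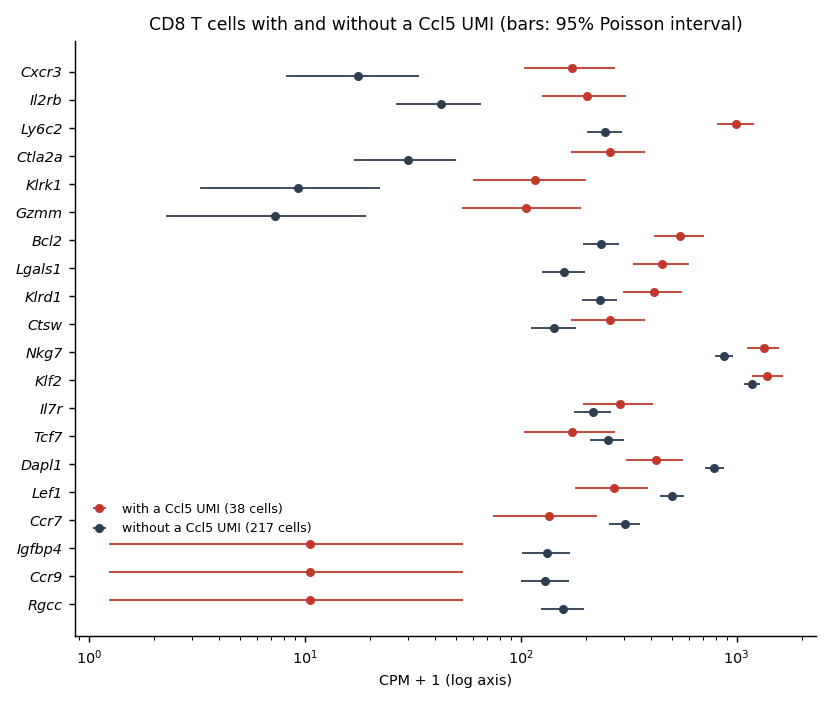
Levels of 20 genes as CPM + 1 on a log axis in the 38 CD8 T cells with and the 217 without a Ccl5 UMI, with bars for the 95% Poisson interval. Cxcr3, Il2rb, Klrk1 and Gzmm are higher in the cells with Ccl5, Klf2, Il7r and Tcf7 overlap, and Lef1, Ccr7, Ccr9 and Rgcc are lower.

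A looser split on Ccl5, Nkg7, Il2rb, Cxcr3 and Eomes together was set by Nkg7. Of the 255 cells 165 had 2 or more UMIs of these 5 genes, 64.7%, 42 had 1 and 48 had none. After thinning to 500 UMIs the share was 18.8%, against 5.68% of CD4 T cells, 0.0787% of B cells and 0.115% of neutrophils. Cells with 2 or more had a higher median depth than cells with none, 2325 against 1949.5 UMIs. Ly6c2 was at 483 CPM in 72 of the 165 cells and 52.6 CPM in 2 of the 48, a ratio of 9.18 (3.87 to 28.6). Ms4a4c followed at 153 and 31.6 CPM. Dapl1 did not separate them, at 747 and 674 CPM with a ratio of 1.11 (0.844 to 1.48). Several genes higher in the 48 cells were neutrophil or myeloid genes, among them Wfdc17 at 337 against 88.8 CPM, Il1b at 211 against 64.1 CPM and Tyrobp at 558 against 237 CPM. The neutrophil list made up 0.629% of the UMIs of those 48 cells and 0.385% of the 165, and its part in these differences was not tested.

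Against the CD4 T cells of the same library, the CD8 T cells shared most T cell genes and differed in lineage genes and in some cytotoxic genes, Nkg7 among them. Of 4643 genes tested 237 (5.10%) were at least 2-fold higher and 445 (9.58%) at least 2-fold lower in the CD8 T cells, with a median log2 difference of -0.16. Scaling to the median ratio of genes took out a log2 ratio of -0.16, which raised the CD8 T cell side. It turned the split to 345 higher and 297 lower. The CD4 T cells held so few UMIs that the level of 20 CPM was 3.37 UMIs there, against 11.7 in the CD8 T cells.

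The CD8 lineage list had 3 of 5 tested genes at least 2-fold higher and none lower, and the CD4 lineage list 6 of 8 lower and none higher, beside 5.10% higher and 9.58% lower of all genes. Runx3, the factor that silences Cd4 and drives the CD8 fate, was at 168 CPM (136 to 205) in 79 CD8 T cells and at 71.2 CPM in CD4 T cells, 2.36-fold (1.29 to 4.72). Its counterpart Zbtb7b (ThPOK) had 4 UMIs in CD8 T cells and 11 in the far smaller CD4 total, 9.52-fold lower (2.82 to 41.0). Izumo1r, the folate receptor of regulatory and other CD4 T cells, stood at 36.0 against 320.3 CPM. The costimulatory receptors Tnfrsf4 (OX40) and Cd28 were lower as well, 6.86 against 130.5 CPM and 179.9 against 510.1 CPM. Cd40lg, the helper signal to B cells, had 3 UMIs in the CD8 and 16 in the CD4 T cells.

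Of 6 cytotoxic genes tested 3 were at least 2-fold higher in CD8 T cells and 1 lower, beside 5.10% and 9.58% of all genes. Nkg7 was at 958 against 154 CPM, 6.21-fold (4.19 to 9.59). Ly6c2 was at 379 against 35.6 CPM, 10.6-fold (4.81 to 29.3), and Ly6c1 (chromosome 15, 75044018 to 75048830, minus strand) went the other way with 3 against 22 UMIs. Ccr9 had 63 UMIs in the CD8 and none in the CD4 T cells, at least 6.07-fold higher with the CD4 T cells taken at 3 UMIs. Klrd1 and Ctsw were higher by 5.56-fold (2.75 to 13.1) and 5.49-fold (2.27 to 17.3). Cxcr6 was higher by 3.87-fold (1.58 to 12.3).

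Several genes outside the lineage lists were higher too. Dnajc15, a cochaperone of the mitochondrial inner membrane, was at 406 CPM (356 to 461) in 138 CD8 T cells against 101, 4.03-fold (2.46 to 7.03). Epsti1, an interferon-responsive gene, was at 387 CPM (338 to 441) in 125 cells against 113, 3.44-fold (2.15 to 5.82). Plac8 and Ms4a4c, both also abundant in B cells at 660.2 and 274 CPM, were higher by 5.71-fold (2.14 to 21.5) and 10.3-fold (2.74 to 86.3). The mitochondrial proteins Hspa9 and C1qbp were higher by 2.89-fold (1.25 to 8.19) and 2.36-fold (1.26 to 4.90).

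Of 17 receptor signalling genes tested 0 were past 2-fold in either direction, beside 5.10% and 9.58% of all genes, with a median log2 difference of -0.05. The receptor itself was somewhat lower in the CD8 T cells, with Trac at 761 against 1305 CPM and Trbc2 at 1587 against 2438. The T cell identity list summed to 4646 CPM (4473 to 4824) in CD8 and 7111 (6715 to 7526) in CD4 T cells. Of its 11 genes 2 were at least 2-fold lower and none higher, beside the same shares, with a median log2 difference of -0.52. Of 15 naive genes 13 were within 2-fold, 1 was higher and 1 lower, beside 5.10% and 9.58% of all genes tested, with a median of -0.10. The one higher was Ccr9, and the one lower Igfbp4 at 109.7 against 225 CPM. Lef1 stood at 459 and 492 CPM and Klf2 at 1217 and 1352, with intervals of each ratio that include 1. Dapl1 was at 723 against 397 CPM, 1.82-fold (1.40 to 2.39).

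**Figure D5:**
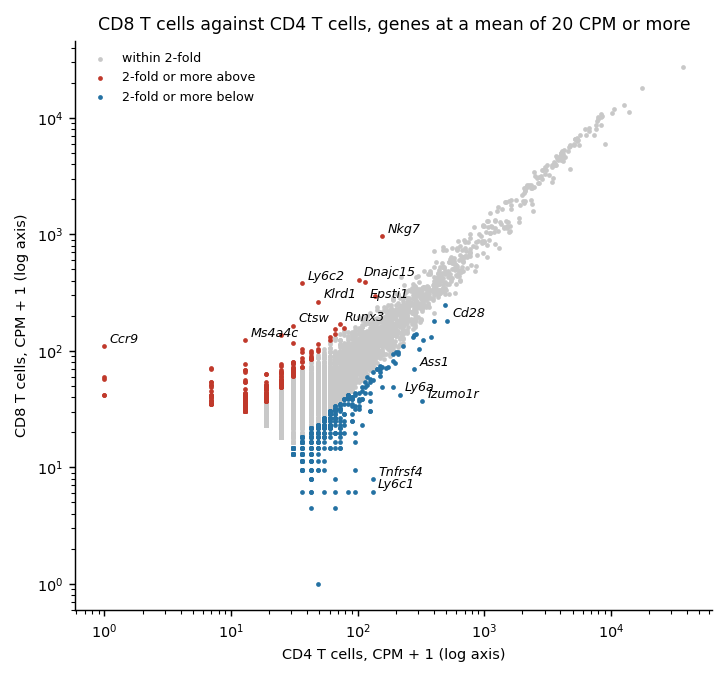
Each point is 1 of 4643 genes, with CPM + 1 in CD4 T cells on the horizontal log axis and in CD8 T cells on the vertical log axis, coloured where the 2 differ by 2-fold or more. Nkg7, Ly6c2, Klrd1, Ctsw, Runx3 and Ccr9 lie above, Cd28, Izumo1r, Tnfrsf4 and Ly6c1 below, and the columns at the left are single UMIs of the CD4 T cells.

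Genes of proliferation and activation were partly undetected. Of the 18 cell cycle genes 13 were detected, with 1623 CPM (1521 to 1729.7) in all, against 1613 in CD4 T cells and 2019 in non-T cells. Against non-T cells none of the 7 tested was 4-fold higher and 2 were lower, beside 3.00% and 10.6% of all genes tested. Mki67, Cdk1, Ccnb1, Ccna2 and Birc5 had no UMI in the members and Top2a had 1. The 12 quiescence and survival genes summed to 3882 CPM (3723 to 4045) against 5059 in CD4 T cells and 6544 in non-T cells, with 1 of 11 tested genes at least 4-fold higher than in non-T cells and 1 lower. Against the 3.00% and 10.6% of all genes these 2 counts of 1 gene say nothing about the list. Of the immediate early genes 0 of 10 tested were higher and 3 lower, beside the same shares of all genes. Fos and Jun had 8 and 2 UMIs, with Fos at 13.7 CPM against 211 in non-T cells, and Jund was the highest of its list at 533 CPM against 1301. Of the 10 inhibitory receptor genes 6 were detected, with 43 UMIs in all. Lag3, Tigit, Havcr2 and Ctla4 were at 0, and Pdcd1 (PD-1) had 3 UMIs, all in 1 cell. Btla had 12 UMIs in 11 cells and Cd160 had 11 UMIs in 8 cells. Of 3 tested against non-T cells none was higher and 2 were lower, beside 3.00% and 10.6% of all genes.

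Of 13 MHC class I genes 1 was at least 4-fold higher than in non-T cells and none lower, beside 3.00% and 10.6% of all genes tested, and none was past 2-fold against CD4 T cells, beside 5.10% and 9.58%. B2m, the light chain, was at 3224 CPM in CD8 and 3232 CPM in CD4 T cells. Of 14 cytokine receptor genes 5 were at least 4-fold higher than in non-T cells (Il7r, Il2rb, Il6st, Il18r1, Il27ra) and 3 lower, beside the same 3.00% and 10.6%. The shared γ chain Il2rg was at 271 CPM and the α chain Il2ra at 0. Among homing receptors, the integrin chain Itgb7 was at 250.2 CPM in 109 cells and S1pr1, which guides exit from lymphoid organs, at 178 CPM in 85 cells.

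Of 13 interferon-stimulated genes tested 11 were within 4-fold of non-T cells. The exceptions were Ifi47, higher at 235 against 43.0 CPM, and Oasl2, lower at 10.3 against 132. Beside 3.00% higher and 10.6% lower of all genes, 1 gene each way says nothing about the list. Against CD4 T cells 5 of 12 were at least 2-fold higher, beside 5.10% of all genes. These were Ifit1, Isg15, Ifit3, Xaf1 and Irf7, named after their values had been seen. The ratio was 2.54 (1.01 to 8.22) for Isg15 and 8.96 (1.49 to 365) for Ifit1, which had 1 UMI in the CD4 T cells, and the intervals of the other 3 included 1. Ribosomal protein genes made up 41.2% of the UMIs of CD8 T cells, 35.4% in CD4 T cells and 18.0% in non-T cells.

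CD8 T cells were a smaller share of each other library in which the rule found any. It found 8 of 1219 cells in the spleen of run 1, 0.656% (0.284 to 1.29), 9 of 3823 in the bone marrow of run 2, 0.235% (0.108 to 0.446), and 1 of 4653 in the blood of run 2. None was found in 4856 cells of the inflammation library, which by 3 counts of the total allows a share of up to 0.0618%. None was found in the blood and bone marrow of run 1 either, but Cd8a, Cd8b1 and Cd4 were not listed in those tables, so the rule could not find any there. The table of the spleen of run 1 lists 10 of the 11 genes and lacks Cd4.

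The 8 cells of the spleen of run 1 all had Nkg7 and Lef1 UMIs, 6 had Dapl1, 4 Ly6c2 and 3 Ccl5. Of the 9 cells of the bone marrow of run 2, 7 had Nkg7, 7 had Ly6c2, 4 had Lef1, 3 had Ccl5 and 2 had Dapl1. The memory list stood at 5251 CPM (4368 to 6261) in the former and 5577 (4646 to 6641) in the latter, of which Ccl5 gave 64 of 124 and 61 of 126 UMIs, from 3 cells each. Without Ccl5 it stood at 2541 (1939 to 3271) and 2877 (2221 to 3667) CPM, against 1311 in the members. The neutrophil list stood at 11984 and 31959.6 CPM, against 4120 CPM in the members. These lists were only partly listed in the run 1 table, and the part of neutrophil RNA in these values was not tested. The age of the mice and the run cannot be told apart between the spleen libraries.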

How the data were processed

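The deposited files hold, per library, UMI counts of genes in cells, which the authors made with Cell Ranger on mm10 according to the submitters' processing notes, starting from droplet libraries of 3 pooled mice per tissue and run. The counts were used as deposited, without a further filter on cells. From them, UMIs were summed per group of cells and scaled to CPM, with exact Poisson intervals for levels, exact conditional intervals for ratios and Clopper-Pearson intervals for shares (scipy 1.17.1, confidence 95%). A group at 0 was taken at 3 UMIs. Genes at a mean of at least 20 CPM in the groups compared were called by size alone. The limits were 4-fold against non-T cells and 2-fold against CD4 T cells. Simulated counts covered only changes larger than these limits in genes at 50 CPM or more. They do not bear on calls near the limits or near 20 CPM. Shares were also computed after thinning each cell to 500 UMIs. With 1 library, no test was made.

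The members and the 25 gene lists were chosen with earlier results of these data known. The lists overlap, 29 of their 301 genes standing in more than 1 list. Named genes were those of the rule, the highest of each list (up to 10 for the main lists and up to 4 for the others, plus defining genes at 0), and the genes of largest ratio with at least 100 CPM in the higher group, 25 above and 15 below non-T cells and 15 in each direction against CD4 T cells and between cells with and without the 5-gene sum. Genes of the Ccl5 split, and those given where a count of 5 or fewer is resolved, were named after their values were seen. Coordinates are from GENCODE vM21 (mm10). The table of conditions of the inflammation library was not used. Some genes of the lists are not reported here by name.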

Additional observations from a re-analysis of the deposited data

How the results depend on the processing

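Of 76 alternative values 51 stayed within the counting interval or within 1.5 times the count, and 25 moved. Asking for 2 or more Cd8a or Cd8b1 UMIs gave 5.05% of the library and a memory list at 1976 CPM. The memory list also stood at 2044 CPM with a quality filter on cells, 1916 without the 5% of members with most UMIs, 2049 without the 25% with most neutrophil-list RNA and 1311 without Ccl5 itself. Without members carrying Ccl5 the memory, cytotoxic and naive lists were at 1008, 1684 and 5082 CPM. With no filter on low levels 465 genes were 4-fold higher and 827 lower than in non-T cells, and 655 were 2-fold higher and 788 lower than in CD4 T cells. With a filter at 50 CPM these counts were 60, 280, 39 and 95. With neutrophils in place of non-T cells 931 genes were 4-fold higher, and with B cells in place of them 237 were lower. The share of members with 2 or more UMIs of the 5 genes was 44.3% at 3 or more UMIs, 18.8% and 34.8% after thinning to 500 and 1000 UMIs, 16.9% without Nkg7, 14.9% for Ccl5 alone and 12.2% for Ccl5 at 3 or more. The alternatives that leave out Ccl5, Ccl5 cells or shared barcodes, drop Nkg7, ask for 3 Ccl5 UMIs or replace the non-T cells were chosen after seeing the data. The cause of these moves was not tested beyond what each alternative removes. The 88 CD4 T cells limit that comparison, and no left-out replicate or paired analysis was possible because the results come from 1 library and no test.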
